A study of Homo sapiens with 4 samples.

Results

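The short arm of chromosome 16 carries a cluster of C2H2 zinc finger genes in band 16p13.3, and 9 of them (ZSCAN10, ZNF205, ZNF213, ZNF200, ZNF263, ZNF75A, ZSCAN32, ZNF174 and ZNF597) were examined here for trimethylation of histone H4 at lysine 20 (H4K20me3). They were taken from 20155 protein-coding genes, of which 566 are zinc finger genes by symbol, and all lie in the window from 3100000 to 3600000 of chromosome 16 (hg19). The cluster was chosen by the coverage of ZNF75A and its neighbours with H4K20me3 regions, which was already known. Gene body and window coverage are therefore given below as a description with no test.

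Chromatin immunoprecipitation and sequencing (ChIP-seq) had been performed in IMR90 cells, a line of normal human lung fibroblasts that stops dividing after a limited number of doublings. Proliferating cells (PRO) were at population doubling 32 and cells in replicative senescence (RS) were at population doubling 86. Both states came from the same line, grown at low oxygen without any added gene or drug. Each state was profiled with 2 anti-H4K20me3 rabbit monoclonal antibodies, which gave 4 samples in all. The deposited data are 3 lists of positions, namely peaks found with both antibodies in PRO, peaks found with both antibodies in RS, and regions that the DiffBind analysis called different between the states over the 4 samples at a false discovery rate of 0.01. A DiffBind region thus carries the significance call of the deposited list, but the lists hold no p-value per region, no value per sample, no read count and no direction. No error or interval can therefore be given for a difference between PRO and RS coverage, and the depth behind each peak is unknown. The paper reports that peaks of the antibodies overlapped far more in RS than in PRO, and the peak lists hold only shared peaks. It also shows that the libraries differed in their shares of aligned and duplicate reads. How these bear on PRO and RS coverage was not tested.

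C2H2 zinc finger proteins bind DNA through tandem fingers, in each of which a pair of cysteines and a pair of histidines hold a zinc ion. Many also carry a KRAB domain, which recruits the corepressor TRIM28, or a SCAN domain, through which they pair with one another. H4K20me3 is laid down mainly by SUV420H2, an enzyme drawn to chromatin that carries H3K9me3 and HP1, and zinc finger genes are a known site of such chromatin, often over the exon that encodes the fingers. Coding sequences of the MANE Select transcripts were translated and searched for the finger pattern (a pair of cysteines, 12 residues and a pair of histidines). All 9 genes held fingers, from 3 in ZNF174 to 14 in ZSCAN10, with 62 in total. In every one of the 9 genes the fingers lay whole within 1 coding exon.

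Stretches encoding 3 neighbouring fingers are shown for 5 of the genes. In each gene with an RS peak, RS peaks covered all fingers, though not only the exon that encodes them. ZNF213 is shown as a gene without a region, and ZNF200, which had RS peaks, is not shown. Capitals mark the codons of the zinc-binding cysteines and histidines, read 5′ to 3′ on the strand of the gene. The stretches lie at chr16:3367465-3367695 (plus strand, ZNF75A), chr16:3339812-3340042 (plus strand, ZNF263), chr16:3433149-3433379 (minus strand, ZSCAN32), chr16:3458677-3458907 (plus strand, ZNF174) and chr16:3190923-3191153 (plus strand, ZNF213) of hg19, and each is 231 bases long.
ZNF75A: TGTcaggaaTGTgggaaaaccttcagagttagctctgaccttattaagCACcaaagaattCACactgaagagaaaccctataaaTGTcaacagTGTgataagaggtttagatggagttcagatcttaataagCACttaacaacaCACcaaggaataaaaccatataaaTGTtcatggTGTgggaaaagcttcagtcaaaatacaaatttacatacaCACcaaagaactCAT
ZNF263: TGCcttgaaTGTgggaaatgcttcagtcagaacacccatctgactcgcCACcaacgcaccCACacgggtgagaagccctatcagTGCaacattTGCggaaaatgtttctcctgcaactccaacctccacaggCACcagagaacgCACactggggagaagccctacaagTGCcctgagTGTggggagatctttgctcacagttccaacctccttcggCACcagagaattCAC
ZSCAN32: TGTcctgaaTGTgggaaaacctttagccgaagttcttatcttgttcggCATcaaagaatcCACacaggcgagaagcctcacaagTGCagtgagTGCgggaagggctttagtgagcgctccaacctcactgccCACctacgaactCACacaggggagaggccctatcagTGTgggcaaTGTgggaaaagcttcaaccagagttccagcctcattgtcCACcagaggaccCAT
ZNF174: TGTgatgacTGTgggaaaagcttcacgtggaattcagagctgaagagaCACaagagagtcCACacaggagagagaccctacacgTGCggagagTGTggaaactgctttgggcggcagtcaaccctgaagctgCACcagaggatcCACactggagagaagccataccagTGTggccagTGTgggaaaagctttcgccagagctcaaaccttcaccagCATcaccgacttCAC
ZNF213: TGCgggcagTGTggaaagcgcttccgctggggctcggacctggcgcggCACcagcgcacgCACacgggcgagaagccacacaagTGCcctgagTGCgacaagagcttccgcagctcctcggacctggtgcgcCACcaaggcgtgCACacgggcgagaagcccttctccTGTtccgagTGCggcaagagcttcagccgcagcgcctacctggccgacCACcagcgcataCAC
The stretches of ZNF75A, ZNF263, ZSCAN32 and ZNF174 lay wholly inside RS peaks. Those of ZNF263 and ZNF174 also lay wholly inside PRO peaks. No list touched the stretch of ZNF213. Base identity between pairs ran from 52.4% (ZNF75A and ZNF213) to 64.5% (ZNF263 and ZSCAN32). The GC content was 35.9% in ZNF75A, 52.8% in ZSCAN32, 53.7% in both ZNF263 and ZNF174, and 67.5% in ZNF213.

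To ask how much of the cluster carried the mark in each state, peaks were first laid over the whole window. PRO peaks numbered 7 and covered 9007 bases, or 1.801% of the window. RS peaks numbered 29 and covered 62229 bases, or 12.4%. The ratio of RS to PRO bases was 6.91 in the window, 5.63 inside the 9 gene bodies and 10.4 in the window outside them. It was 17.4 inside the gene bodies of the other zinc finger genes and 11.1 over the main chromosomes. DiffBind regions numbered 13 and covered 61613 bases, or 12.3%. On chromosome 16 as a whole, RS peaks covered 1.42% of the known bases and PRO peaks 0.207%, so the window stood 8.77 times above its chromosome in RS and 8.72 times above it in PRO. The 4 windows of the same length on either side had RS coverage of 0.120% to 1.84% and PRO coverage of 0% to 0.240%, with at most 1 zinc finger gene in each.

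**Figure D1:**
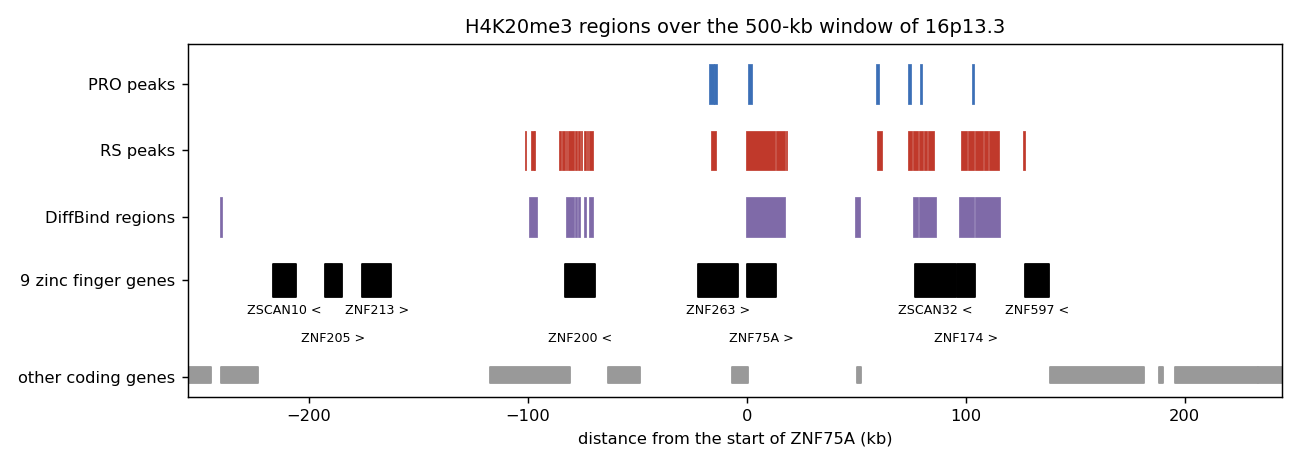
Positions of PRO peaks (blue), RS peaks (red) and DiffBind regions (purple) over the window, with the 9 zinc finger genes in black (arrowheads give the strand) and other named coding genes in grey; the x axis is the distance in kb from the start of ZNF75A. RS peaks form 3 clusters, over ZNF200, over ZNF263 with ZNF75A, and over ZSCAN32 with ZNF174, and leave ZSCAN10, ZNF205, ZNF213 and ZNF597 uncovered.

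The marked chromatin was not spread evenly. When RS peaks at most 20 kb apart were joined, they fell into 3 clusters. The first spanned 30801 bases (3254201 to 3285001) with 13 RS peaks over ZNF200 and the ground beyond its 3′ end, and held no PRO peak. The second spanned 35001 bases (3338801 to 3373801) with 4 RS peaks over ZNF263 and ZNF75A. It had the densest coverage, at 57.2% in RS and 12.0% in PRO. The third spanned 67801 bases (3414601 to 3482401) with 12 RS peaks over ZSCAN32 and ZNF174, at 43.1% in RS and 5.61% in PRO. Before the first cluster lay 154201 bases without an RS or PRO peak, which hold ZSCAN10, ZNF205 and ZNF213. After the third lay 117599 bases without a region of any list up to the end of the window, which hold ZNF597. Of the 28 gaps between neighbouring RS peaks, those between clusters included, 15 were 399 bases, the shortest gap seen. Peaks were called in windows of 200 bases and joined by a gap rule of 200 bases, and 399 bases is the shortest gap this leaves. Shorter breaks could not appear, and whether breaks of this length follow the signal or the calling was not tested. Covered lengths are therefore given beside each number of peaks.

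Across the genes, 5 of 9 overlapped an RS peak, 4 of 9 a PRO peak and 4 of 9 a DiffBind region. The background is the share of genes with at least 1 base in the list. Among all 20155 coding genes it was 21.0% for RS peaks, 3.97% for PRO peaks and 18.3% for DiffBind regions. Among the 557 other zinc finger genes it was 64.6%, 29.6% and 56.0%, respectively. The counts of 5, 4 and 4 in 9 thus stand near the background of their own gene family, and no test was made on so few genes. The median RS-covered share of a gene body was 13.25% over the 9 genes, 11.5% over the other zinc finger genes and 0% over all coding genes. At least 50% of the gene body lay in RS peaks in 3 of the 9 genes and in 101 (18.1%) of the other zinc finger genes. The same held for 225 (1.12%) of all coding genes. The cluster was chosen by this coverage, so no conclusion is drawn from the count of 3.

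**Figure D2:**
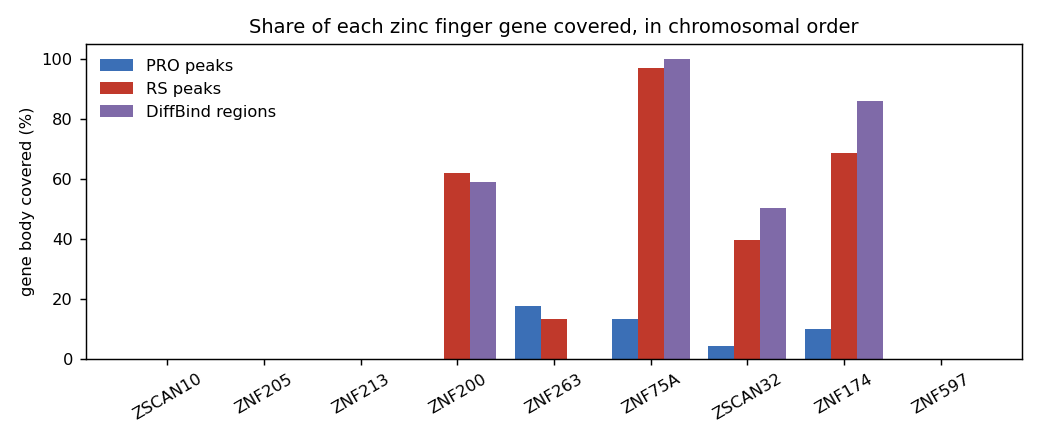
Share of the gene body (y axis, %) in PRO peaks (blue), RS peaks (red) and DiffBind regions (purple) for the 9 genes, ordered along the chromosome. ZNF75A reaches 97.0% in RS, ZNF263 is the gene with more in PRO (17.7%) than in RS (13.25%), and 4 genes stand at 0% in all lists.

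ZNF75A, a KRAB zinc finger gene with 5 fingers (ENSG00000162086, 3355406 to 3368852, plus strand), was almost wholly covered in senescent cells. RS peaks held 13048 of its 13447 bases (97.0%), PRO peaks held 1801 (13.4%) and a single DiffBind region held all 13447 (100%). A single RS peak of 13201 bases, the longest in the window, ran from 3355201 to 3368401, starting upstream of the gene. A further RS peak from 3368801 to 3372601 covered the last bases of the gene and continued downstream. All 1611 coding bases and all 5 fingers lay in RS peaks. The PRO peak (3355801 to 3357601) sat at the opposite end from the fingers. It began 395 bases downstream of the annotated start and held 40.1% of the promoter, taken as 2000 bases on either side of the start, and none of the coding exons. In the MANE Select transcript this peak falls between the opening exon and the next, and its bases are exonic in other annotated isoforms. The PRO peak was contained in the RS peak, which was contained in the DiffBind region. By RS share ZNF75A ranked 44 among all coding genes and 2 among zinc finger genes, a ranking that led to its choice.

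The genes whose shares in the 3 lists came nearest to those of ZNF75A were sought among 18984 coding genes of at least 2000 bases outside the window, by the largest difference over the PRO, RS and DiffBind shares. ZNF416 (chromosome 19, 58082934 to 58090279) came closest, with a largest difference of 2.49 percentage points. ZNF416 had 10.9% in PRO, 98.9% in RS and 100% in the DiffBind list. ZNF594 (chromosome 17, 5082830 to 5095163) followed with 6.52 points. Its shares were 11.1% (PRO), 90.5% (RS) and 97.0% (DiffBind). C19orf18 (chromosome 19, 58469805 to 58485902) was 9.66 points away, with 3.73%, 91.3% and 100%. FAM47C and SSR4, both on chromosome X, were each 13.4 points away, and that distance was the whole PRO share of ZNF75A, since neither had a PRO peak.

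ZNF263 (ENSG00000006194, 3333283 to 3351401, plus strand) lies upstream of ZNF75A, with TIGD7 on the other strand between them, and encodes a factor with SCAN and KRAB domains and 9 fingers. It showed another arrangement. A pair of PRO peaks held 3202 bases (17.7%), 1 RS peak held 2401 bases (13.25%), and no DiffBind region touched the gene. The RS peak (3338801 to 3341201) covered all 9 fingers and 56.8% of the coding bases, and 83.4% of this RS peak was already in PRO peaks. The PRO peaks (3338001 to 3340201 and 3340601 to 3341601) covered 5 of the 9 fingers, because the gap between them fell on the last 4. The annotated gene includes a long isoform, and over the span of the MANE Select transcript the shares were 38.4% in PRO and 30.1% in RS, an alternative chosen after seeing the data. More PRO than RS bases were also found in 11 (1.97%) of the 557 other zinc finger genes. Of 157 other zinc finger genes with both a PRO and an RS peak, 25 (15.9%) had no DiffBind region, as was the case for ZNF263.

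ZNF174, a SCAN-domain gene with 3 fingers (ENSG00000103343, 3451215 to 3459364, plus strand), had 5602 of 8150 bases in RS peaks (68.7%), 801 in a PRO peak (9.83%) and 7001 in a DiffBind region (85.9%). Here the PRO peak (3458401 to 3459201) lay over the last coding exon and contained all 3 fingers. In RS the coverage reached back across 2 peaks (3453201 to 3456001 and 3456401 to 3459201), including 77.3% of the intronic bases. The start of the gene stayed free, with 1986 bases between it and the nearest RS peak. Downstream, 3 further RS peaks covered 10203 of the 11401 bases of the next DiffBind region (3459601 to 3471001), where no coding gene is annotated apart from a readthrough transcript that spans the third cluster.

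ZSCAN32, whose name denotes a SCAN domain and which carries 6 fingers (ENSG00000140987, 3432081 to 3451065, minus strand), is read away from ZNF174. RS peaks held 7524 of its 18985 bases (39.6%), a PRO peak held 801 (4.22%) and DiffBind regions held 9522 (50.2%). RS coverage lay on the 3′ side. In the 50% of the gene nearest the 3′ end, 79.3% of bases lay in RS peaks, against 0% in the 5′ 50%, where DiffBind regions held 429 bases. All 6 fingers were inside an RS peak (3431201 to 3433601) and inside a DiffBind region with the same ends. The PRO peak (3434401 to 3435201) covered 483 coding bases of the preceding exon and no finger.

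ZNF200 (ENSG00000010539, 3272325 to 3286221, minus strand), with 5 fingers, differed from the other covered genes in having no PRO peak, the nearest being 51779 bases away. RS peaks held 8608 of its 13897 bases (61.9%) in 8 separate peaks, and DiffBind regions held 8205 (59.0%) in 5 regions. All 1185 coding bases and all 5 fingers lay in RS peaks, while the promoter was covered at 19.5%. Keeping only regions of at least 1000 bases lowered the RS share to 37.4%, which is how far the value rests on short peaks.

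No region of any list touched the remaining 4 genes. ZSCAN10 (ENSG00000130182, 3138891 to 3149296, minus strand), a SCAN-domain factor known from embryonic stem cells, lay 104904 bases from the nearest RS peak. ZNF205 (3162561 to 3170518, plus strand), a KRAB gene with 8 fingers, lay 83682 bases away. ZNF213 (3179778 to 3192805, plus strand), with SCAN and KRAB domains and 5 fingers, lay 61395 bases away. ZNF597 (3482414 to 3493504, minus strand), a KRAB gene with 7 fingers that is known to be imprinted, was a different case. An RS peak of 801 bases (3481601 to 3482401) ended 12 bases short of its annotated 3′ end. Extending each gene by 2000 bases therefore gave ZNF597 an RS share of 5.31%, while the other 3 uncovered genes remained at 0%. Absence from a peak list means that no domain passed with both antibodies. Absence from the DiffBind list means that no difference passed its false discovery rate. Neither shows that the mark was absent.

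**Figure D3:**
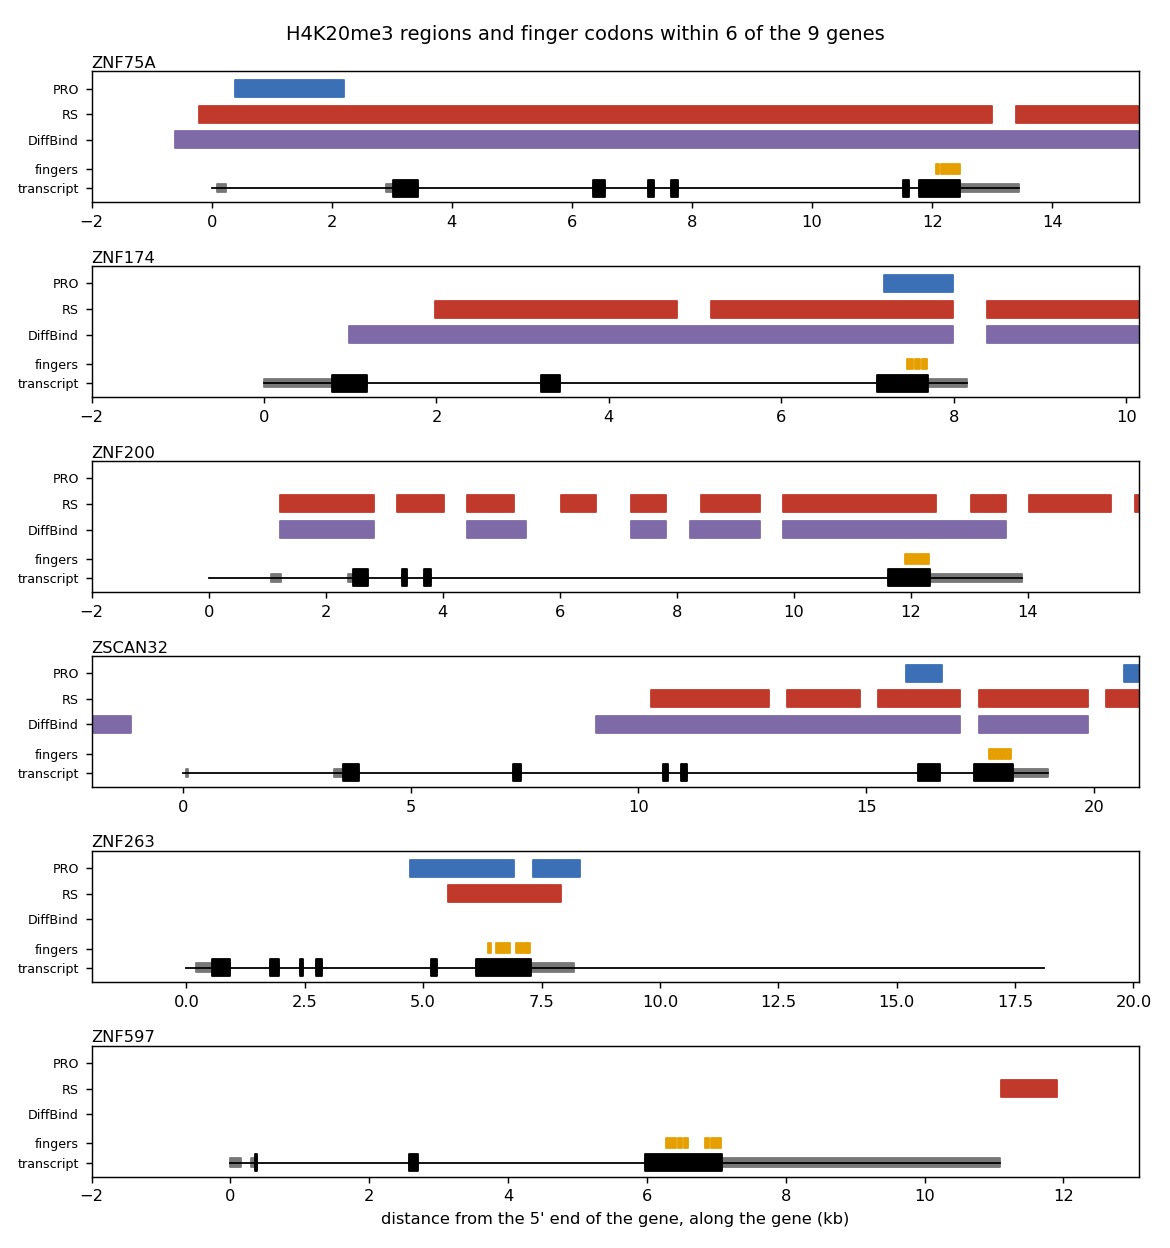
Close-up of 6 genes along their own direction of transcription, with the distance from the 5′ end of the annotated gene in kb on the x axis; the MANE Select transcript has tall black boxes for coding parts of exons and low grey boxes for the rest, orange marks finger codons, and blue, red and purple bars are PRO peaks, RS peaks and DiffBind regions. Finger codons of the 5 genes other than ZNF597 lie under RS peaks, the PRO peak of ZNF75A lies near the start while that of ZNF174 lies over its fingers, and the RS peak beside ZNF597 ends 12 bases before the gene.

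Where the peaks lay within the genes was summarised next, from the same lists that chose the cluster. In ZNF75A near-complete coverage fixes the answer, and high RS coverage also bears on ZNF174 (68.7%) and ZNF200 (61.9%). RS peaks contained 28 of the 62 fingers (45.2%), against 2571 of 5761 (44.6%) in the other zinc finger genes. These 28 were all fingers of the 5 genes with an RS peak. Among other zinc finger genes with an RS peak and a detected finger, all fingers were inside in 117 of 349 (33.5%). Whether all fingers are inside depends on how much of a gene is covered, which chose the cluster. Genes with an RS peak had a median RS share of 61.9% here and 30.9% among the other zinc finger genes. No conclusion is therefore drawn from these counts. DiffBind regions contained 19 fingers (30.6%), against 2466 of 5761 (42.8%) in the other zinc finger genes. These 19 were all fingers of the 4 genes with such a region. Among the other zinc finger genes with a DiffBind region, all fingers were inside in 153 of 304 (50.3%). PRO peaks contained 8 of the 62 fingers (12.9%), 5 in ZNF263 and 3 in ZNF174, against 78 of 5761 fingers (1.35%) in the other zinc finger genes. Of the 4 genes with a PRO peak, 1 had all fingers inside and 2 had none. Among 161 other zinc finger genes with a PRO peak, 3 had all fingers inside and 145 had none. Over the pooled bases of the 9 genes, RS coverage was 8.33% in promoters, 26.97% in introns, 39.6% in exons, 42.1% in coding exons and 45.1% in finger codons. The other zinc finger genes had 13.0%, 15.3%, 27.2%, 33.0% and 46.2% for the same parts. PRO coverage of coding exons was 13.0% in the 9 genes and 1.28% in the others, while over whole gene bodies it was 5.74% and 0.979%. PRO and DiffBind coverage also chose the cluster, so no conclusion is drawn from their shares either. Fingers of 1 gene share a peak and are not independent, so these shares are given without a test.

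**Figure D4:**
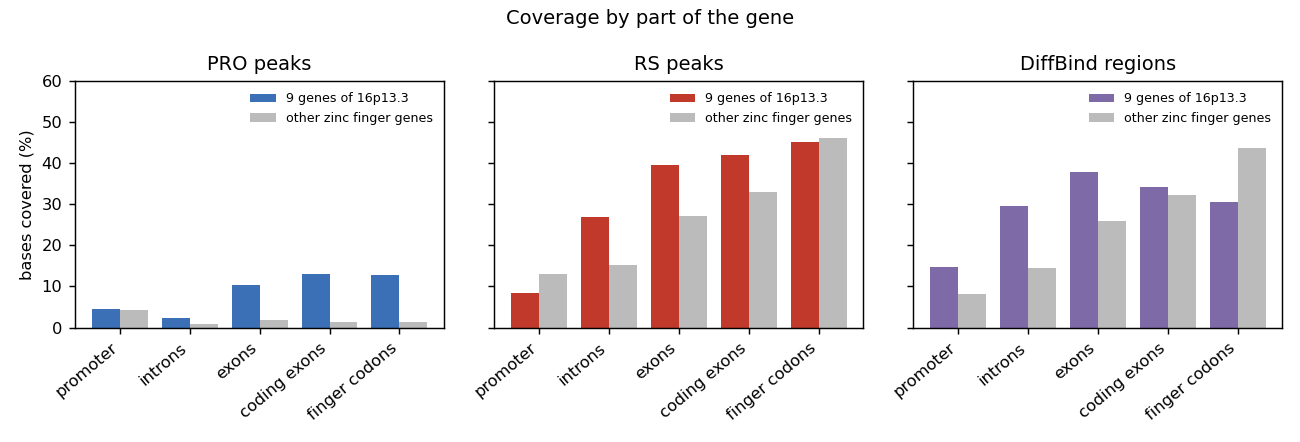
Share of bases (y axis, %) in PRO peaks, RS peaks and DiffBind regions for promoters, introns, exons, coding exons and finger codons, pooled over the 9 genes (coloured) and over 533 other zinc finger genes with a detected finger (grey). In RS the share in finger codons was 45.1% and 46.2%, while in PRO it was 12.9% and 1.42%. PRO coverage of whole gene bodies was 5.74% and 0.979%, and coverage in these lists chose the cluster.

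The lists were then compared with each other. All 7 PRO peaks of the window overlapped an RS peak, and 4 lay wholly inside one. Over the genome 54.8% of PRO peaks overlapped an RS peak. In bases, 81.8% of PRO coverage in the 9 genes was also RS coverage, close to the 82.3% in other zinc finger genes. DiffBind regions contained 3 of the 7 PRO peaks, namely those in ZNF75A, ZSCAN32 and ZNF174, and over the genome 11.4% of PRO peaks overlapped one. The other 4 PRO peaks were the pair in ZNF263 and those at 3414401 to 3415601 and 3429201 to 3430401, and each of these overlapped an RS peak outside the DiffBind list. In the 9 genes 89.8% of RS bases were inside DiffBind regions, compared with 74.0% in other zinc finger genes and 47.6% over the genome. Of the 13 DiffBind regions, 11 (84.6%) overlapped an RS peak, against 73.4% over the genome. The cluster was chosen by its coverage in these same lists, and ZNF75A alone held 13048 of the 37183 RS bases in the 9 genes. No conclusion is therefore drawn from how far the lists overlap here. The deposited list gives no direction for a region.

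The window holds 12 other coding genes, and they served as a neighbouring set. Of these, 5 overlapped an RS peak, 2 a PRO peak and 5 a DiffBind region, and their median RS share was 0%. Over all coding genes the shares with such an overlap were 21.0%, 3.97% and 18.3%, respectively. Some of the 12 overlap the 9 zinc finger genes, and 4 had RS bases outside those gene bodies. The 2 with a PRO peak are genes without a symbol (ENSG00000290183 and ENSG00000285329) that run across ZNF263 or across ZSCAN32, ZNF174 and ZNF597. OR1F1, an olfactory receptor gene that overlaps the 3′ end of ZNF200, had 16.4% in RS peaks. TIGD7, a transposase-derived gene beside ZNF75A, had 7.64% in RS peaks, from the upstream end of the peak over ZNF75A. NLRC3 had 6.78%, all of it beyond the end of the window. OR2C1, another olfactory receptor gene, had 78.5% in a DiffBind region (3404801 to 3407001) without a peak of either state. IL32, which encodes a cytokine, had 2.98% in a DiffBind region at its start (3114601 to 3115801), also without a peak. MMP25, MEFV, NAA60, C16orf90 and CLUAP1 had no region. Gene bodies of the 9 zinc finger genes made up 115081 bases of the window and held 59.8% of its RS bases and 73.3% of its PRO bases.

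Zinc finger genes of a stretch of band 6p22 (27000000 to 29700000 of chromosome 6), a cluster that is also rich in SCAN-domain genes, were set beside those of 16p13.3. In that stretch, RS peaks touched 5 of 15 zinc finger genes (33.3%), DiffBind regions 4 (26.7%) and PRO peaks 0. The highest RS share in it was 33.1%, in ZNF184, against 97.0% in ZNF75A. ZNF322 (26634611 to 26659980), which lies in the band but before the stretch, had 34.6% in RS peaks, 42.6% in DiffBind regions and 2.37% in PRO peaks, so the PRO count of 0 holds for the stretch and not for the band. ZNF75A, ZNF174, ZNF200 and ZSCAN32 each had a larger RS share than any of these 6p22 genes. ZNF263 (13.25%) and the 4 genes without an RS peak did not. The 16p13.3 cluster was chosen by its coverage, so no conclusion is drawn from this ordering. The stretch of 6p22 is also a low comparator. Its median RS share was 0%, against 11.5% over the zinc finger genes outside 16p13.3 cluster. Whether the clusters differ was not tested, since each is 1 stretch of chromosome with no replicate.

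**Figure D5:**
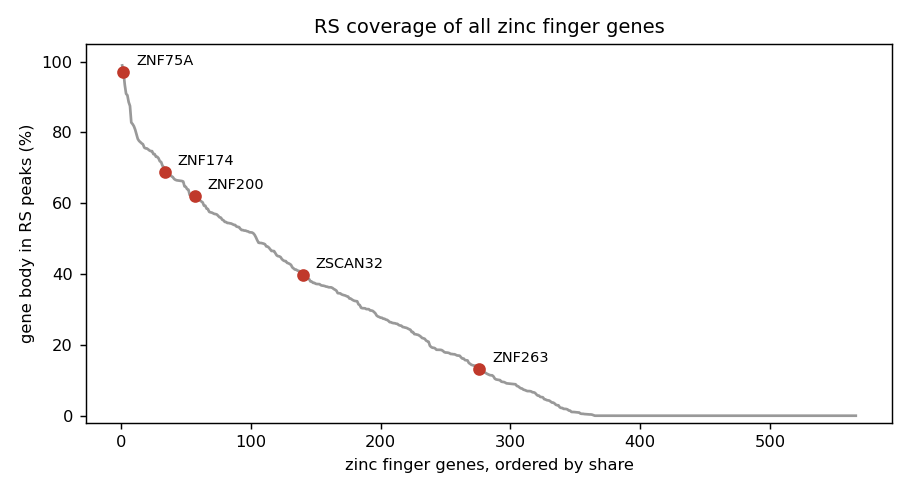
RS-covered share of each gene body (y axis, %) for all 566 zinc finger genes, ordered from highest to lowest on the x axis (grey line), with the 5 covered genes of 16p13.3 as red points. These run from 97.0% in ZNF75A to 13.25% in ZNF263, and the other 4 genes lie on the flat part at 0%.

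Base content and uniqueness of sequence were also measured. The GC content was 43.7% to 47.4% in the 5 genes with an RS peak. It was 55.8% in ZSCAN10, 58.5% in ZNF205 and 53.5% in ZNF213, which had none, and 42.4% in ZNF597, which had none either. CpG sites numbered 13.7 to 20.9 per kb in the covered genes, 34.6 to 35.1 per kb in ZSCAN10, ZNF205 and ZNF213, and 15.0 per kb in ZNF597. Within the window RS peaks held 15.8 CpG sites per kb and the rest 22.5. The part of base content in the result was not tested. Windows of 75 bases that occur again elsewhere in the genome, on either strand and without mismatch, made up 2.04% of the window, 1.33% of RS bases and 1.32% of PRO bases. In ZNF75A 0 of 13447 such windows were repeated, and the highest share among the 9 genes was 5.50% in ZSCAN32.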

How the data were processed

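Per the labels and the study's methods, the authors mapped single-end reads on hg19 with Bowtie2 2.1.0, called domains against a histone H4 ChIP with SICER 1.1 in windows of 200 bp, intersected the peaks of both antibodies within each state, and compared the states with DiffBind 1.8.3, for which the sources name different count models. The deposited lists hold positions only. Starts lay on a grid of 200 bases in all 3 lists, and with 1 merged list per state no test was made. The study describes a longer DiffBind list than the deposited regions used here.

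Covered bases and overlaps (from 1 shared base) were computed in Python 3.11.15 with NumPy 2.4.6, and tested on simulated intervals. Genes came from GENCODE release 44 on GRCh37, which shares coordinates with hg19 on chromosome 16. Sequence was read with pysam 0.24.0 and translated with Biopython 1.88. Each coding gene was measured from its outermost annotated start to its outermost end. Named genes are the 9 genes, the other coding genes of the window, the 5 genes nearest to ZNF75A, and ZNF184 and ZNF322, named after their values were seen. Genes and comparison lists were chosen with earlier results of these data known.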

Additional observations from a re-analysis of the deposited data

How the results depend on the processing

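The counts of genes and the covered bases were recomputed with regions of 1 base dropped, with regions of at least 1000 bases only, with a stricter overlap (200 shared bases, or regions with at least 50% inside), with genes extended by 2000 bases and the window narrowed by 50 kb on each side, and with exons or coding gene bodies only. The span of the MANE Select transcript was an alternative chosen after seeing the data. Of 51 recomputed summary values, 48 stayed within 1.5 times the reported one. Of these, the 9 values with regions of 1 base dropped could not change, since the shortest region in the window was 401 bases. The number of genes with a PRO peak fell to 2 with regions of at least 1000 bases, as the PRO peaks of ZSCAN32 and ZNF174 are 801 bases each. Restricted to exons, the bases in the 9 genes came to 19214 for RS peaks and 18397 for DiffBind regions, since exons hold fewer bases. Gene shares moved between 0 and above 0 in 3 cases, those of ZSCAN32 and ZNF174 in PRO and of ZNF597 in RS. Over exons alone some shares rose by more than 1.5 times, in PRO to 22.3% for ZNF75A, 13.5% for ZSCAN32 and 27.7% for ZNF174, and in RS to 68.1% for ZSCAN32 and 21.4% for ZNF263.

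No paired analysis was possible because each state has 1 merged list with no value per sample, and leaving out an antibody was not run for the same reason. The lists carry no read depth, so its effect was not tested.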
